A study of Mus musculus with 10 samples.

Results

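Liver biopsies of mice that later responded to obeticholic acid (OCA) were compared with liver biopsies of mice that later received vehicle. The comparison holds 6 of the 10 biopsies of the study, namely the 3 titled responder and the 3 titled vehicle, and the groups follow the sample titles alone. The OCA-responder group and the vehicle group both consisted of C57BL/6 mice of wild-type genotype, all fed a western diet for 12 weeks when the liver was biopsied. No mouse had received a dose at that time, so that the groups share strain, tissue, diet and weeks of diet. They are defined by the assignment and the outcome that came later, and the hour of biopsy was not given. A responder was a mouse of the OCA arm with a low NAFLD activity score at the end of the study, whereas the vehicle mice were allotted by stratified randomization and carry no outcome in their title. The 4 biopsies of later non-responders were left out of the tests. The sample records give neither age nor sex, and the bracketed codes in the titles were not interpreted.

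A western diet loads hepatocytes with fat and cholesterol. Hepatocytes make most plasma proteins and apolipoproteins, convert cholesterol to bile acids, and lie among stellate cells, sinusoidal endothelial cells, Kupffer cells and bile duct cells, all of which give RNA to a biopsy. OCA is an agonist of the farnesoid X receptor (FXR, Nr1h4), a bile acid sensor that lowers bile acid synthesis through Nr0b2. The growth of a ribosome needs the ribosomal RNAs, which are cut from the 45S precursor Rn45s, and the cytosolic ribosomal proteins, whose mRNAs share a pyrimidine tract at their first bases.

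The table held 10913 genes, each with a count of at least 1 in all biopsies, and 10785 had counts high enough to be tested. Total counts were 40609599 to 51259349 in responders and 53892299 to 76529328 in the vehicle group. Rn45s took 22.8%, 16.3% and 25.7% of all counts in responders, against 6.58%, 6.87% and 3.70% in the vehicle group. The groups did not overlap, and the shares differed by 1.95 on the log2 scale (two-sided exact permutation test, p = 0.1, which is the lowest value 3 against 3 can give). Hepatocyte genes such as Alb and Tat were present in all biopsies, as were the Y-linked genes Ddx3y, Eif2s3y, Kdm5d and Uty. Levels are given as CPM (the count of a gene relative to the total of its library) after TMM scaling, which sets each library on the trimmed mean of its genes. The titles number the mice within a group, and p-values measure the spread between these biopsies.

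Before treatment, the expression of 488 genes differed between the OCA-responder and vehicle groups (edgeR quasi-likelihood test, adjusted p under 0.05), which is 4.52% of the genes tested. Of these, 274 were higher in responders (2.54% of the genes tested) and 214 were lower (1.98%). The change was at least 2-fold for 176 of the higher and 150 of the lower genes. All 488 had groups that did not overlap, against 32.6% of all genes tested. Where this is repeated below for called genes, it adds nothing to their call. Without adjustment, 2802 genes (26%) had p under 0.05, of which 1393 (12.9%) were higher and 1409 (13.1%) lower in responders. Over all genes tested 49.2% had a log2 fold change above 0 and 50.8% below 0, and the median was −0.01. The number of calls depended on which biopsies entered. It was 848 without vehicle 1 (7.84% of 10814 tested; 4.6% higher and 3.25% lower), 81 without responder 1, 15 without responder 2, 3 without responder 3 and 9 without vehicle 2. Without vehicle 3 edgeR called 0 genes, with 1973 at an unadjusted p under 0.05. Every one of the 488 genes kept its direction in each of these 6 fits. Groups that do not overlap hardly allow another outcome, so this adds no support to the calls. The counts for the lists described below also depended on the biopsies that entered, and not always in step with these totals. Limma on log2 of the deposited FPKM plus 0.1 called 147 genes higher and 1623 lower. FPKM is relative to the total of each library, and no further scaling such as TMM was applied to it. The median of all genes was −0.37 there, so that list medians should be read against that of all genes. DESeq2 called 1548 genes (14.4%) on the same 6 biopsies, 805 higher (7.46%) and 743 lower (6.89%). When the Rn45s share of each biopsy was added to the model, edgeR called 0 genes, with 337 at an unadjusted p under 0.05. The share does not overlap between the groups, so the share and the group cannot be told apart.

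**Figure D1:**
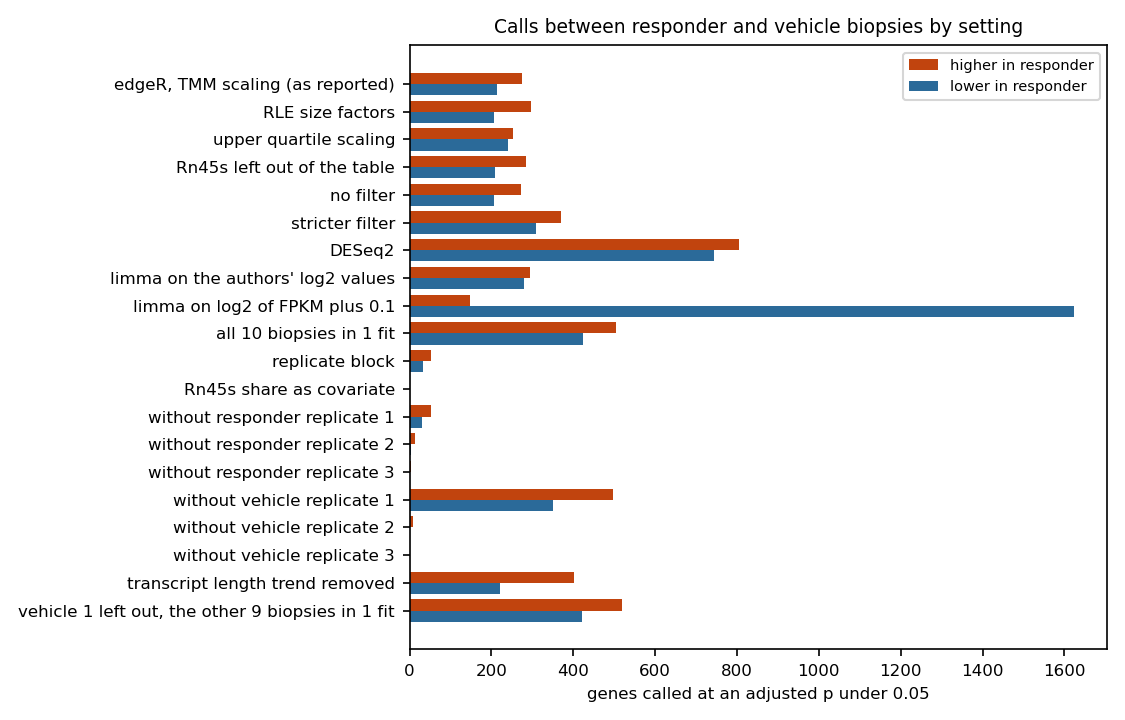
Number of genes called at an adjusted p under 0.05, higher (upper bar) and lower (lower bar) in responders, in the reported test and 19 alternatives. The count ranges from 0 (Rn45s share as covariate, without vehicle 3) to 1770 (limma on log2 of FPKM plus 0.1, of which 1623 were lower).

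**Figure D2:**
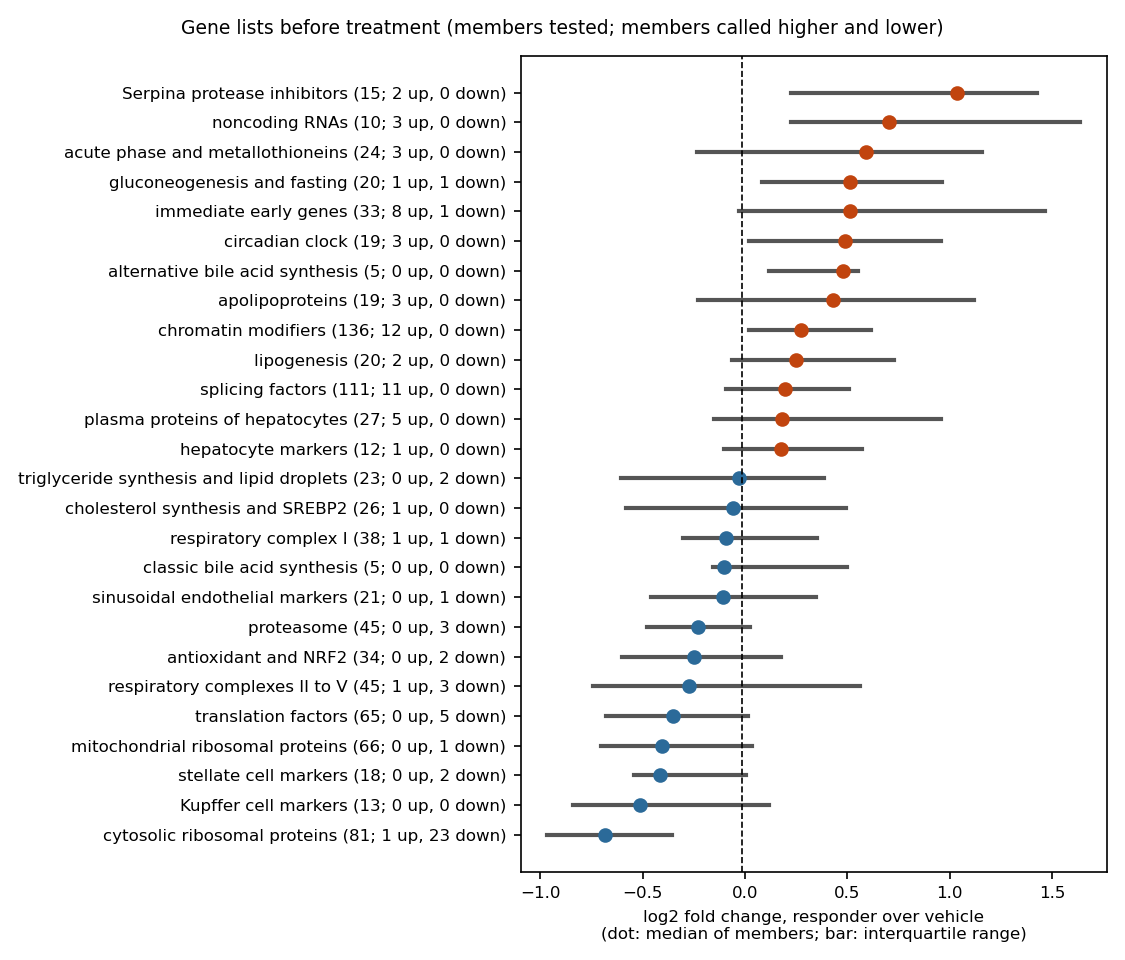
Median log2 fold change of responder over vehicle for 26 gene lists (dot) with the interquartile range over the members tested (bar). The dashed line is the median of all 10785 genes tested, and the numbers beside each name give the members tested and the members called higher and lower. Among the lists plotted, Serpina protease inhibitors lie farthest to the right (median 1.04) and cytosolic ribosomal proteins farthest to the left (median −0.68, 23 of 81 called lower). On FPKM values without further scaling such as TMM, the median of all genes is −0.37. There the medians of the apolipoprotein, chromatin, lipogenesis, splicing, plasma protein and hepatocyte marker lists lie below 0 and that of classic bile acid synthesis above 0.

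The 12 genes with the largest rise in responders, among those called at a mean of at least 1 CPM, included Rpph1, Mir6236, Atf3 and Myc. The RNA component of ribonuclease P, Rpph1, which trims the 5′ end of transfer RNAs, had 192, 164 and 209 CPM in responders, against 28.1, 37.3 and 29.6 CPM in the vehicle group (log2 fold change 2.56, standard error 0.19, adjusted p = 0.00523). This was the smallest adjusted p of all genes tested. An exon of Rpph1 lies within the neighbouring Ccnb1ip1, so reads of the pair cannot be told apart without strand. The microRNA gene Mir6236 reached 191, 114 and 234 CPM in responders, against 16.9, 20.2 and 14.8 CPM in the vehicle group (log2 fold change 3.37, standard error 0.29, adjusted p = 0.00641). Counts at this locus come from an mRNA library and do not measure the mature microRNA. Its mature sequence in RefSeq (chr9:110281353-110281371, plus strand, GRCm38.p6) is shown to identify the locus with the largest rise among these genes, with the seed (bases 2 to 8) in capitals.
Mir6236: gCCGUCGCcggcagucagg
Rn45s itself was called higher (log2 fold change 2.3, standard error 0.29, adjusted p = 0.0202). Lncpint, a long noncoding RNA, was at 2.02, 1.22 and 1.47 CPM in responders, against 0.489, 0.376 and 0.387 CPM in the vehicle group (log2 fold change 1.89, adjusted p = 0.0423). These were 3 of the 10 noncoding RNAs listed that were tested (Rpph1, Rn45s and Lncpint), which is 30%, against 2.54% of all genes called higher. Of the 10, 9 had a log2 fold change above 0, against 49.2% of all genes.

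Atf3, a transcription factor induced by cell stress, was at 108, 75.8 and 196 CPM in responders, against 17.7, 7.53 and 15 CPM in the vehicle group (log2 fold change 3.23, adjusted p = 0.0213). Myc, a transcription factor that drives cell growth and ribosome production, had 37.9, 35.9 and 36 CPM in responders, against 7.64, 3.95 and 7.68 CPM in the vehicle group (log2 fold change 2.5, adjusted p = 0.0201). As in every gene called higher, the lowest responder biopsy stood above the highest vehicle biopsy for both. The 3 responder values of Myc lay close together. Mid1ip1, a protein that binds acetyl-CoA carboxylase and favors fatty acid synthesis, had 12.2, 15.8 and 24.4 CPM in responders, against 0.979, 3.17 and 1.49 CPM in the vehicle group (log2 fold change 3.21, adjusted p = 0.0228). Ppp1r3g, a subunit that directs protein phosphatase 1 to glycogen, had 4.22, 5.75 and 11.3 CPM in responders and 1.02, 0.996 and 0.305 CPM in the vehicle group (log2 fold change 3.19, adjusted p = 0.0309). Rnase4, a secreted ribonuclease whose locus overlaps that of Ang, showed 51.5, 29 and 35.5 CPM in responders, against 5.97, 7.72 and 7.08 CPM in the vehicle group (log2 fold change 2.47, adjusted p = 0.0162). Hmgn5, a nucleosome-binding protein, was at 16.2, 15.3 and 12.4 CPM in responders, against 1.26, 2.34 and 2.92 CPM in the vehicle group (log2 fold change 2.74, adjusted p = 0.0205). The remaining genes of the 12 with the largest rise were expressed at low levels, namely Spsb2 (a substrate adaptor of a ubiquitin ligase, log2 fold change 2.92), Akap5 (an anchor of protein kinase A, 2.87), Disp1 (which releases hedgehog ligands, 2.85) and Mndal (an interferon-inducible nuclear protein, 2.51). The responder values of Disp1 were spread, at 5.36, 3.87 and 0.876 CPM, with 0.489, 0.506 and 0.387 CPM in the vehicle group.

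**Figure D3:**
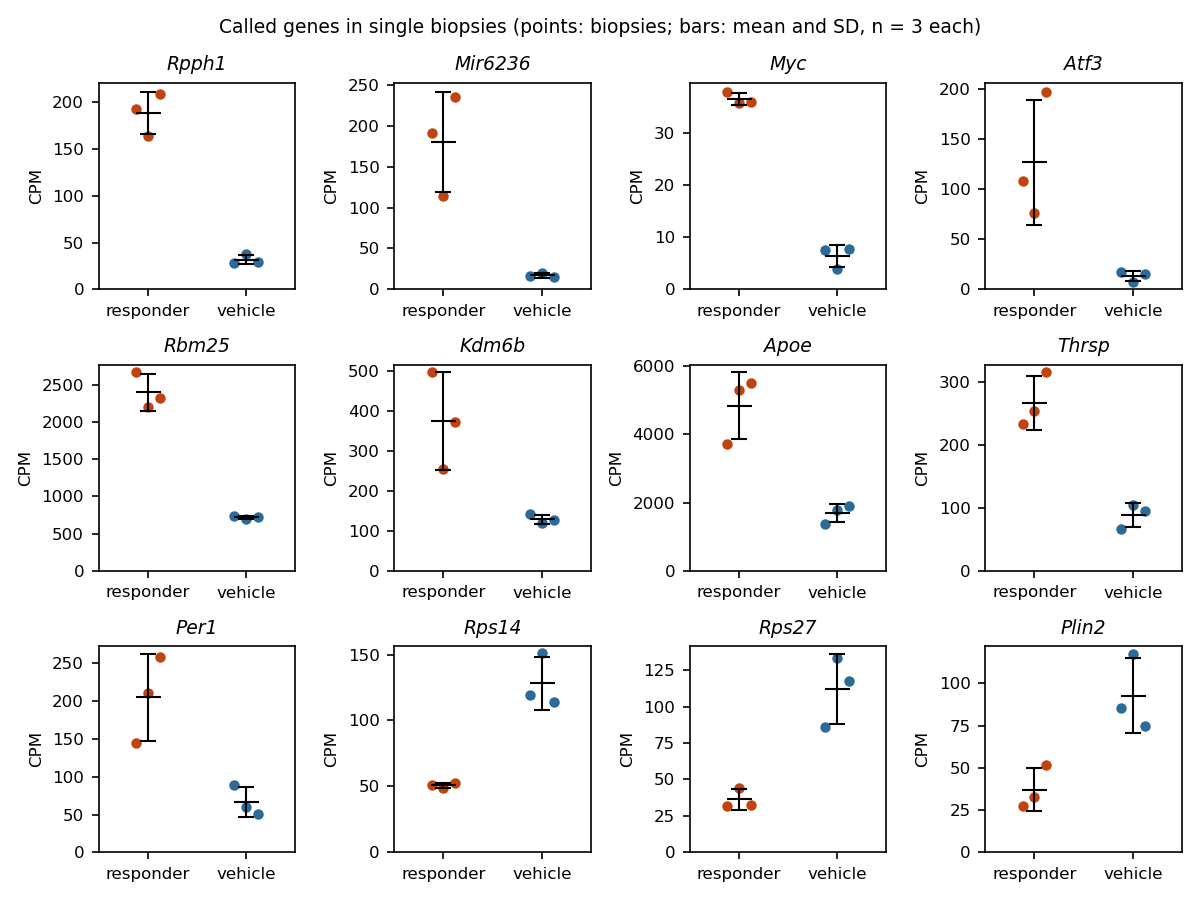
Expression of 12 called genes in single biopsies, in CPM from 0, with responder points on the left and vehicle points on the right of each panel. Bars give the mean and SD (n = 3 each). As in every called gene, no panel has overlapping groups, and Rps14, Rps27 and Plin2 are the genes that were lower in responders.

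The 12 genes with the largest fall, chosen by the same rule, included E2f2, Nap1l3, Mamld1 and Polr2j. E2f2, a transcription factor of the S phase genes, had 0.427, 0.107 and 0.166 CPM in responders, against 7.68, 1.78 and 1.96 CPM in the vehicle group (log2 fold change −4.07, adjusted p = 0.036). Nap1l3, a nucleosome assembly protein, was at 0.598, 0.705 and 0.0947 CPM in responders and 9.81, 5.26 and 5.09 CPM in the vehicle group (log2 fold change −3.86, adjusted p = 0.0282). Mamld1, a mastermind-like coactivator, had 0.199, 1.73 and 0.924 CPM in responders and 5.25, 17.8 and 11.1 CPM in the vehicle group (log2 fold change −3.57, adjusted p = 0.0395). All 3 stayed below 2 CPM in each responder biopsy. Polr2j, a subunit of RNA polymerase II, was measured with more reads, at 8.75, 11.4 and 12.9 CPM in responders, against 37.1, 48.5 and 64.8 CPM in the vehicle group (log2 fold change −2.2, standard error 0.26, adjusted p = 0.0202). Tlr3, a receptor for double-stranded RNA, had 0.712, 1.39 and 0.213 CPM in responders and 4.37, 5.24 and 5.48 CPM in the vehicle group (log2 fold change −2.71, adjusted p = 0.0439). Bambi, a membrane protein that dampens TGF-beta signaling, had 0.855, 1.73 and 1.11 CPM in responders and 2.8, 6.68 and 7.36 CPM in the vehicle group (log2 fold change −2.19, adjusted p = 0.0423). Ngfr, a neurotrophin receptor found on stellate cells in liver, had 0.997, 1 and 0.639 CPM in responders and 5.26, 4.83 and 3.81 CPM in the vehicle group (log2 fold change −2.41, adjusted p = 0.0213). Lancl2 (log2 fold change −2.81), the orphan receptor Gpr52 (−2.67), Tmem62 (−2.23), the zinc finger gene Zfp108 (−2.18) and the thioredoxin-like Txndc17 (−2.02) completed the 12. The vehicle biopsies lay above the responder biopsies in each of these 12 genes, which the rule of choice required.

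Genes of the cytosolic ribosome were mostly lower in responders. Of 81 ribosomal protein genes tested, 75 had a log2 fold change below 0 and 23 were called lower (28.4%, against 1.98% of all genes tested), whereas 1, Rpl34, was called higher (log2 fold change 2.27). Their median log2 fold change was −0.68, against −0.01 over all genes, and 50 of 81 were lower at an unadjusted p under 0.05. The 81 genes summed to 10873 to 12540 CPM in responders and 13504 to 20433 CPM in the vehicle group. Rps14, a protein of the small subunit, was at 50.8, 48.7 and 53 CPM in responders, against 119.7, 151 and 114 CPM in the vehicle group (log2 fold change −1.35, standard error 0.17, adjusted p = 0.0202). Rps20 had 13.4, 16.3 and 15 CPM in responders, against 41.5, 44.7 and 36.6 CPM in the vehicle group (log2 fold change −1.47, adjusted p = 0.0202). Rps27 had 31.9, 44.5 and 32.7 CPM in responders, against 86.2, 133 and 117 CPM in the vehicle group (log2 fold change −1.64, adjusted p = 0.0213). In all 3 genes the responder biopsies lay close to each other and below each vehicle biopsy. Rps4x, the X-linked protein of the small subunit, had 284, 307 and 249 CPM in responders, against 557, 717 and 669.9 CPM in the vehicle group (log2 fold change −1.22, adjusted p = 0.0213). Rps6, the substrate of the S6 kinases, had 42.8, 50.02 and 62.4 CPM in responders, against 133, 139.6 and 117 CPM in the vehicle group (log2 fold change −1.34, adjusted p = 0.0213). Ribosomal protein genes have many processed pseudogenes, and how reads that fit several copies were placed was not stated. Without vehicle 1 the list held 41 genes called lower, where 3.25% of all genes were called lower. Without vehicle 3 edgeR called 0 of the list, with 42 lower at an unadjusted p under 0.05. The median stayed between −0.82 and −0.60 when single biopsies were left out. With the Rn45s share in the model the median was −0.15. Transcripts of these genes are short, with a median length of 831.5 bases (80 with a length) against 3178.5 over all genes. When all genes were cut into 5 equal bins by length, the shortest bin had a median log2 fold change of −0.10. After the trend with length was removed, 622 genes were called in all (5.81%; 3.75% higher and 2.05% lower). The median of the list was then −0.60, and 24 of its genes were called lower.

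The start of a ribosomal protein mRNA carries a pyrimidine tract through which growth signals control its translation. The promoter windows of Rps27 (chr3:90213599-90213898, minus strand) and Rps6 (chr4:86857318-86857617, minus strand) are shown as examples of called genes with such a tract, from 250 bases before to 50 bases after the annotated start (RefSeq, GRCm38.p6), with the tract of C and T across the start in capitals.
Rps27: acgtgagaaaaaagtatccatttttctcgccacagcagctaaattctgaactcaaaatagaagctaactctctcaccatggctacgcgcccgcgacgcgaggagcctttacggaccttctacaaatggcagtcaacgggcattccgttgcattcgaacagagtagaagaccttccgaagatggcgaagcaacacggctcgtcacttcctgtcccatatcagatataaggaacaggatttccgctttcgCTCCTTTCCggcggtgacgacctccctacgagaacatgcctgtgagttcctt
Rps6: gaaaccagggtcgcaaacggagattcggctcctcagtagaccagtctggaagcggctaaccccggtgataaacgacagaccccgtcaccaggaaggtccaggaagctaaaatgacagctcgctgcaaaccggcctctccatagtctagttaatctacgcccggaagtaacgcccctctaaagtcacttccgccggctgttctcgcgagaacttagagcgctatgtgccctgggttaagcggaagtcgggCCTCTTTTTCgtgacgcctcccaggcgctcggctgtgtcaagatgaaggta
A tract of at least 8 such bases across the annotated start, read on the strand of the gene, was present in 6 of the 14 ribosomal protein genes called lower that had a window (42.9%), and in 20 of the 59 tested that had a window (33.9%). Over the 8214 genes tested with a window the share was 5.06%, and it was 10.9% of the 156 genes called lower and 4.72% of the 212 genes called higher. The RNA-seq counts measure the amount of these mRNAs and not their translation.

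Factors that work with the ribosome were also more often lower. Of 65 translation factors tested, 47 had a log2 fold change below 0, 5 were called lower and 0 higher (median −0.35; 7.69% against 1.98% of all genes called lower). The 5 were subunits of the initiation factor eIF3 and of the elongation factor eEF1. Eif3f had 35.4, 41.4 and 31.5 CPM in responders, against 59.5, 90.2 and 92.5 CPM in the vehicle group (log2 fold change −1.17, adjusted p = 0.0317). Eif3e had a log2 fold change of −0.89 and Eif3l of −0.99. Eef1b2 had 37.7, 43 and 40.03 CPM in responders, against 65.8, 71.2 and 67.5 CPM in the vehicle group (log2 fold change −0.77, adjusted p = 0.036). Eef1g had a log2 fold change of −0.77. Eef1a1, the elongation factor that brings transfer RNA to the ribosome, took the most reads and did not pass, at 1796, 2061 and 1931 CPM in responders, against 2329, 3467 and 3191 CPM in the vehicle group (log2 fold change −0.65, adjusted p = 0.0765). Without vehicle 1, 16 translation factors were called lower and 1 higher, where 3.25% of all genes were called lower and 4.6% higher. Of 66 mitochondrial ribosomal proteins, 47 were below 0 (median −0.40), and 1 was called lower (1.52%, against 1.98% of all genes). This was Mrpl4, at 9.4, 6.41 and 8.03 CPM in responders, against 19.1, 17.4 and 19.1 CPM in the vehicle group (log2 fold change −1.24).

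Genes of energy supply and protein turnover had medians nearer to 0. Among 45 subunits of respiratory complexes II to V, 3 were called lower (6.67%, against 1.98% of all genes), namely Uqcrb and Cyc1 of complex III and Atp5l of the ATP synthase. Uqcrb was at 40.1, 48.4 and 51.6 CPM in responders, against 94.4, 119 and 134 CPM in the vehicle group (log2 fold change −1.32, adjusted p = 0.0213). The log2 fold change was −0.92 for Cyc1 and −1.13 for Atp5l. Uqcrh of complex III was called higher (log2 fold change 1.33, adjusted p = 0.0423). The median of the list was −0.27, whereas that of 38 complex I genes was −0.09, with Ndufa3 called lower and Ndufs5 called higher. Each was 2.63% of the complex I list, against 1.98% of all genes called lower and 2.54% called higher. The proteasome, which degrades ubiquitin-tagged proteins, had 32 of 45 genes below 0 (median −0.23), against 50.8% of all genes. Psmd6, Psma3 and Psmd12 were called lower (6.67%, against 1.98% of all genes). Psmd6 of the regulatory particle was at 31.4, 28.8 and 26.9 CPM in responders, against 53.5, 50.02 and 51 CPM in the vehicle group (log2 fold change −0.84, adjusted p = 0.036). Psma3 of the core particle was at 61.9, 85.6 and 85.9 CPM in responders, against 133, 142 and 150.3 CPM in the vehicle group (log2 fold change −0.88, adjusted p = 0.0401). Genes encoded by the mitochondrial genome were not analysed here.

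**Figure D4:**
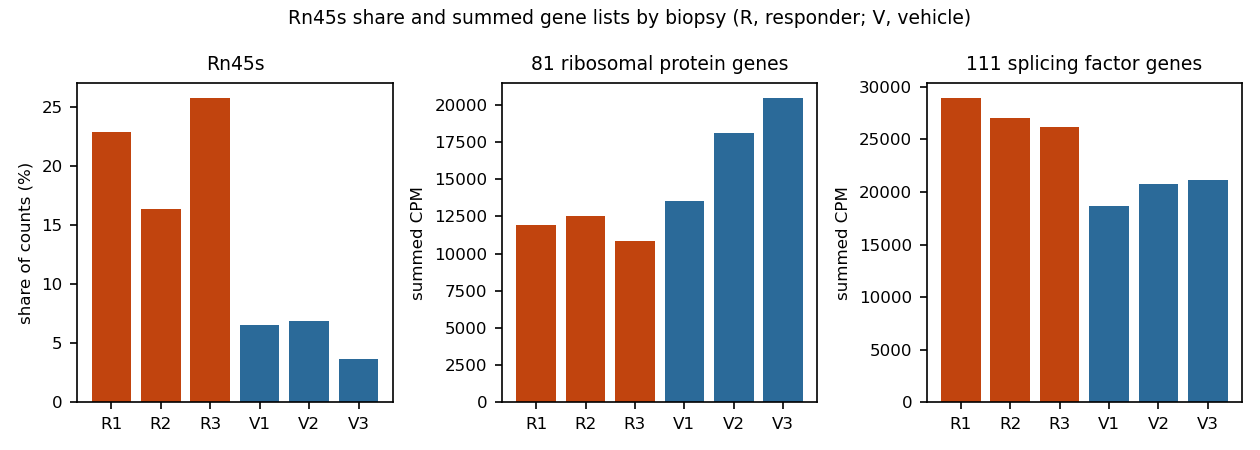
Share of counts taken by Rn45s in percent (left), summed CPM of 81 ribosomal protein genes (middle) and of 111 splicing factor genes (right) in the 3 responder (R) and 3 vehicle (V) biopsies, with bars from 0. Responders lie above the vehicle group in the left and right panels and below it in the middle panel, where vehicle 1 (13504 CPM) is the lowest of its group.

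Genes of splicing and chromatin were more often called higher than lower. Of 111 splicing factor genes tested, 11 were called higher (9.91%, against 2.54% of all genes) and 0 lower, with 76 above 0 and a median log2 fold change of 0.20. Rbm25, which binds pre-mRNA and regulates splice site choice, had 2672, 2197 and 2320.03 CPM in responders, against 734, 691 and 729.6 CPM in the vehicle group (log2 fold change 1.73, standard error 0.15, adjusted p = 0.00667). Luc7l2 and Luc7l3 belong to the U1 particle that finds the 5′ splice site. Luc7l2 had 1494, 1253 and 1438 CPM in responders, against 675, 564 and 567 CPM in the vehicle group (log2 fold change 1.2, adjusted p = 0.0213). For Luc7l3 the values were 352, 352 and 333 CPM in responders, against 182, 174 and 179 CPM in the vehicle group (log2 fold change 0.94, adjusted p = 0.0228). Rbm5, a regulator of alternative splicing, was at 671, 627 and 572 CPM in responders, against 306, 274 and 310.03 CPM in the vehicle group (log2 fold change 1.06, adjusted p = 0.0213). Pnn, a nuclear speckle protein, was at 597, 521 and 493 CPM in responders, against 275, 233 and 253 CPM in the vehicle group (log2 fold change 1.07, adjusted p = 0.0227). In these 5 genes the replicates of a group lay close together. The other 6 called were Prpf40b, Rbm33, Prpf38b, Hnrnpa2b1, Srsf5 and Sf3a2. Leaving out vehicle 1 gave 18 called higher and 2 lower, where 4.6% of all genes were called higher and 3.25% lower. The median was 0.18 to 0.21 when single biopsies were left out.

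Among chromatin modifiers, 105 of 136 were above 0, 12 were called higher (8.82%) and 0 lower (median 0.27). Asxl1, a Polycomb-associated protein, had 255, 235 and 214 CPM in responders, against 121, 102 and 100.1 CPM in the vehicle group (log2 fold change 1.11, adjusted p = 0.0213). Kdm6b, a demethylase of lysine 27 on histone H3, had 497, 254 and 373 CPM in responders, against 142, 119.98 and 126 CPM in the vehicle group (log2 fold change 1.52, adjusted p = 0.0259). Chd3, a remodeler of the NuRD complex, had 888, 906 and 980.04 CPM in responders, against 391, 521 and 483 CPM in the vehicle group (log2 fold change 0.98, adjusted p = 0.0282). Dnmt3a, a DNA methyltransferase, was at 187, 161 and 163 CPM in responders, against 98.3, 79.3 and 93 CPM in the vehicle group (log2 fold change 0.91, adjusted p = 0.0293). Arid4b, a subunit of a Sin3 deacetylase complex, was at 316, 305 and 287 CPM in responders, against 181, 127 and 131 CPM in the vehicle group (log2 fold change 1.04, adjusted p = 0.0301). Responder values were higher in each biopsy for these genes, as in every gene called higher. The list also held Kat5, Arid5b, Phf20, Phf1, Chd9, Chd2 and Jmjd1c among its called genes. Smarca2, an ATPase of the BAF remodeler, took the most reads and did not pass, at 2075, 1930.3 and 2093 CPM in responders, against 906, 1418 and 1718 CPM in the vehicle group (log2 fold change 0.58, adjusted p = 0.158). Chromatin modifiers are encoded by long transcripts (median 5299.5 bases), and the bin of longest genes had a median log2 fold change of 0.10. With the length trend removed, 15 of the list were called higher and its median was 0.28. Without vehicle 1 the number called higher was 28, where 4.6% of all genes were called higher. On FPKM without TMM scaling the medians of the splicing and chromatin lists were −0.18 and −0.09, below 0 and above the −0.37 of all genes.

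Immediate early genes, which respond to stress and growth signals within the hour, were among the lists with the highest share of calls. Of 33 tested, 8 were called higher (24.2%, against 2.54% of all genes) and 1 lower (median 0.51). Besides Myc and Atf3, they were Jun, Plk3, Fosl2, Cebpd, Gadd45a and Btg2. Jun, a subunit of the AP-1 transcription factor with an antisense gene at its locus, had 485, 288 and 512 CPM in responders, against 150.3, 100.1 and 124 CPM in the vehicle group (log2 fold change 1.76, adjusted p = 0.0217). Plk3, a kinase of the stress response, had 553, 325 and 447 CPM in responders, against 173, 87.9 and 120.4 CPM in the vehicle group (log2 fold change 1.78, adjusted p = 0.0262). Fosl2, another AP-1 subunit, was at 194, 261 and 335 CPM in responders, against 88.2, 42.4 and 29.7 CPM in the vehicle group (log2 fold change 2.29, adjusted p = 0.0293). Cebpd, a transcription factor of the acute phase response, was at 7.24, 9.25 and 8.08 CPM in responders, against 3.78, 2.66 and 2.38 CPM in the vehicle group (log2 fold change 1.46, adjusted p = 0.0395). The growth arrest gene Gadd45a had 46, 53.2 and 84.2 CPM in responders, against 13.8, 29.2 and 22.4 CPM in the vehicle group (log2 fold change 1.48, adjusted p = 0.0455). Btg2, another growth arrest gene, had 33.8, 45.6 and 57.8 CPM in responders, against 24.6, 15.9 and 13.1 CPM in the vehicle group (log2 fold change 1.34, adjusted p = 0.0459). Responder 2 was the lowest of its group for Atf3, Jun and Plk3. Odc1, the first enzyme of polyamine synthesis and a target of Myc, was called lower, at 30.5, 39.4 and 47.5 CPM in responders, against 84.2, 80.4 and 90.3 CPM in the vehicle group (log2 fold change −1.13, adjusted p = 0.0293). Fos itself varied among mice, with 12.6, 4.85 and 8.45 CPM in responders and 15.6, 6.06 and 2.12 CPM in the vehicle group, and did not pass (adjusted p = 0.937). Without vehicle 1 the list held 8 called higher and 1 called lower, while the share of all genes called rose to 4.6% higher and 3.25% lower.

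The promoter window of Btg2 (chr1:134079106-134079405, minus strand, RefSeq, GRCm38.p6) is shown because it holds the full cyclic AMP response element TGACGTCA, in capitals, the motif bound by factors of the ATF and CREB family.
Btg2: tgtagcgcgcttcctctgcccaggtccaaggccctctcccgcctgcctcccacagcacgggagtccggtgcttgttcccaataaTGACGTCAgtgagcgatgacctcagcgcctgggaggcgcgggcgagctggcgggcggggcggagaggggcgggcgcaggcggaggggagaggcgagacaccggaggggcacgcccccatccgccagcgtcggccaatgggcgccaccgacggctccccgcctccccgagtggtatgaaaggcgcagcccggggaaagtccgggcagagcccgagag
The letters TGACGTCA, which read the same on both strands, were present in 3.77% of the 212 windows of genes called higher, 3.85% of the 156 of genes called lower and 3.65% of all 8214.

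Clock genes mark the time of day at which a liver was sampled, and vehicle 1 stood apart from the other 5 biopsies in several of them. Arntl, the activator of the clock, had 5.39, 7.07 and 6.66 CPM in responders, against 67.1, 2.45 and 3.74 CPM in the vehicle group. Dbp, an output gene that peaks when Arntl is low, had 19.7, 25.1 and 36.8 CPM in responders, against 0.726, 39.9 and 35.1 CPM in the vehicle group. Per3 was at 9.92, 16.5 and 24.4 CPM in responders, against 0.549, 19.9 and 15.8 CPM in the vehicle group. Tef, an output factor related to Dbp, was at 197, 202 and 238 CPM in responders, against 32.6, 203 and 234 CPM in the vehicle group. In each of these genes vehicle 1 lay far from vehicle 2 and vehicle 3, which were near the responders for Dbp, Per3 and Tef. Of 19 clock genes tested, 3 were called higher (15.8%, against 2.54% of all genes) and 0 lower (median 0.49). Per1, a repressor of the clock that also responds to glucocorticoids, had 145, 211 and 259 CPM in responders, against 89.2, 59.9 and 50.4 CPM in the vehicle group (log2 fold change 1.61, standard error 0.29, adjusted p = 0.0293). Per2 had 22.3, 19.7 and 28.5 CPM in responders, against 8.26, 11.2 and 9.43 CPM in the vehicle group (log2 fold change 1.28, standard error 0.23, adjusted p = 0.0313). Bhlhe40, another repressor, had 706, 628 and 817 CPM in responders, against 424, 332 and 359 CPM in the vehicle group (log2 fold change 0.94, standard error 0.18, adjusted p = 0.0351). Vehicle 1 was the highest of its group for Per1 and the lowest for Per2. With vehicle 1 left out 4 genes of the list were called higher, where 4.6% of all genes were, and its median was 0.23. The promoter window of Per1 (chr11:69098699-69098998, plus strand, RefSeq, GRCm38.p6) is shown because it holds an E-box, CACGTG, in capitals, the letters bound by Arntl and its partner.
Per1: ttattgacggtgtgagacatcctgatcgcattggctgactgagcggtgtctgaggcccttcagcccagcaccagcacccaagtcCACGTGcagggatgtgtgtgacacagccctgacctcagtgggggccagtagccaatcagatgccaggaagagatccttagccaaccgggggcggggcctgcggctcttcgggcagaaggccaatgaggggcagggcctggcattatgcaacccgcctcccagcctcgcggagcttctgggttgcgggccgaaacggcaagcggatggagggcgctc
CACGTG, which reads the same on both strands, was present in 16.5% of the windows of genes called higher, 11.5% of those called lower and 12.1% of all. The part of sampling time in the differences between the groups was not tested.

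**Figure D5:**
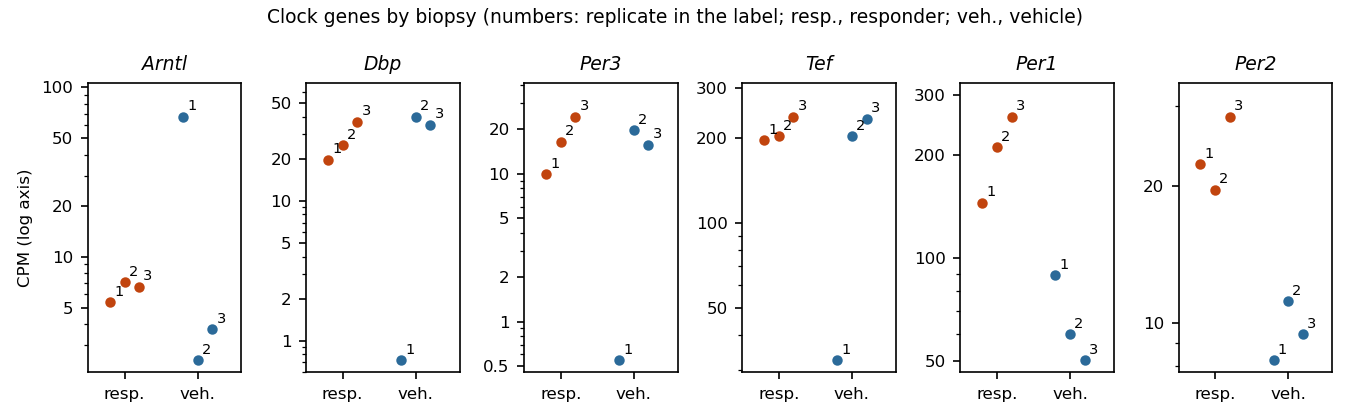
CPM of 6 clock genes on a log axis in the 3 responder biopsies (left of each panel) and the 3 vehicle biopsies (right), with the replicate number beside each point. Vehicle 1 lies apart for Arntl, Dbp, Per3 and Tef, and the groups do not overlap for Per1 and Per2.

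Some genes of secreted hepatocyte proteins were higher in responders. Of 27 plasma protein genes, 5 were called higher (18.5%, against 2.54% of all genes) and 0 lower. Their median was 0.18, with 12 below 0 (median −0.20 on FPKM without TMM scaling). Ahsg, the fetuin that inhibits calcification, had 163, 129 and 172 CPM in responders, against 50.04, 77.4 and 81.6 CPM in the vehicle group (log2 fold change 1.14, standard error 0.22, adjusted p = 0.036). Kng1, a kininogen, was at 50.04, 44.3 and 59.2 CPM in responders, against 13.8, 25.9 and 22.9 CPM in the vehicle group (log2 fold change 1.29, adjusted p = 0.0367). Azgp1, a zinc-binding glycoprotein, was at 50.8, 44.8 and 52.7 CPM in responders, against 18.8, 26.2 and 28.1 CPM in the vehicle group (log2 fold change 1.01, adjusted p = 0.036). The groups did not overlap in these 3 genes, as in every called gene. Apoh, a phospholipid-binding apolipoprotein, was at 52.4, 60.7 and 64 CPM in responders, against 27.7, 38.3 and 32 CPM in the vehicle group (log2 fold change 0.84, adjusted p = 0.0459). Agt, the precursor of angiotensin, was the remaining gene. Alb, serum albumin, overlapped between the groups at 956, 1630.4 and 1778 CPM in responders, against 883, 958 and 1052 CPM in the vehicle group (adjusted p = 0.172). Among 19 apolipoproteins, Apoe, Apoc1 and Apoh were called higher (15.8%) and 0 lower (median 0.43, and −0.02 on FPKM without TMM scaling). Apoe, the ligand by which remnant particles enter the liver, was at 3708, 5289 and 5517 CPM in responders, against 1386, 1793 and 1903 CPM in the vehicle group (log2 fold change 1.5, standard error 0.21, adjusted p = 0.0213). Apoc1, which slows that uptake, was at 59.99, 84.3 and 94.8 CPM in responders, against 23, 39.7 and 38.5 CPM in the vehicle group (log2 fold change 1.23, adjusted p = 0.0423). Responder 1, the lowest of its group for both genes, stood above each vehicle biopsy. Without vehicle 1 the apolipoprotein list held 2 called higher and 1 lower, where 4.6% of all genes were called higher and 3.25% lower.

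Serpina protease inhibitors, of which the liver secretes many, had 12 of 15 genes above 0, against 49.2% of all genes. Their median was 1.04, and 2 were called higher (13.3%, against 2.54% of all genes). Serpina3k had 381, 149.9 and 190.5 CPM in responders, against 68.7, 82.3 and 79.8 CPM in the vehicle group (log2 fold change 1.63, adjusted p = 0.036). Serpina3m had 22.1, 11.4 and 15.4 CPM in responders, against 6.21, 6.11 and 5.1 CPM in the vehicle group (log2 fold change 1.48, adjusted p = 0.036). Both are near copies of neighbouring genes in 1 cluster, so the split of reads between them is uncertain. Acute phase genes included Crp, the C-reactive protein, at 12.8, 8.8 and 9.54 CPM in responders, against 3.59, 3.77 and 2.51 CPM in the vehicle group (log2 fold change 1.64, adjusted p = 0.0298). Fgb, the beta chain of fibrinogen, had 747, 317 and 453 CPM in responders, against 1154, 959 and 1103 CPM in the vehicle group and did not pass (log2 fold change −1.1, adjusted p = 0.0645). The acute phase list had 3 of 24 genes called higher (12.5%) and a median of 0.59, which was −0.06 without responder 1. Of 47 complement and coagulation genes, 24 were above 0 (median 0.04). Of the 47, 3 were called higher (6.38%, against 2.54% of all genes) and 1 lower (2.13%, against 1.98%). Pros1, an anticoagulant cofactor (log2 fold change 1.03), and Mbl1, a mannose-binding lectin (1.77), were among those called higher. Cfi, a complement-regulating protease, was called lower (log2 fold change −0.95, adjusted p = 0.0439). Major urinary proteins, secreted pheromone carriers of male liver, were the called members of the male-biased list (median 1.06). Of its 20 genes, 2 were called higher (10%, against 2.54% of all genes) and 0 lower. Mup21 had 12.8, 8.76 and 10.04 CPM in responders, against 2.85, 4.28 and 4.01 CPM in the vehicle group (log2 fold change 1.49, adjusted p = 0.036). Mup3 had 106, 83.9 and 119.6 CPM in responders, against 33.3, 62.3 and 49.9 CPM in the vehicle group (log2 fold change 1.08, adjusted p = 0.0495). The Mup genes are near copies of each other, and the split of reads between them is uncertain.

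Called lipid genes went in both directions. Of 20 lipogenesis genes, Thrsp and Srebf1 were called higher (10%, against 2.54% of all genes) and 0 were called lower. The median was 0.25, 0.01 without responder 3 and −0.17 on FPKM without TMM scaling. Thrsp, a lipogenic nuclear protein, had 232, 253 and 315 CPM in responders, against 66.8, 104 and 95.5 CPM in the vehicle group (log2 fold change 1.58, standard error 0.22, adjusted p = 0.0213). Srebf1, the transcription factor that turns on fatty acid synthesis, had 1209, 1489 and 1835 CPM in responders, against 639.6, 585 and 534 CPM in the vehicle group (log2 fold change 1.35, standard error 0.20, adjusted p = 0.0213). Each responder value of both genes was above every vehicle value, as in every gene called higher. Mlxipl, the carbohydrate-sensing factor ChREBP, did not pass, at 868, 596 and 704 CPM in responders, against 518, 381 and 296 CPM in the vehicle group (log2 fold change 0.85, adjusted p = 0.0776). Fasn, fatty acid synthase, had 1439, 2796 and 3678 CPM in responders, against 2065, 1048 and 701 CPM in the vehicle group (log2 fold change 1.04, adjusted p = 0.184), where responder 1 lay below vehicle 1. Of 26 genes of cholesterol synthesis, 14 were below 0 (median −0.06). In triglyceride synthesis and lipid droplets, 2 of 23 genes were called lower (8.7%, against 1.98% of all genes) and 0 higher. Agpat2, an enzyme of triglyceride synthesis, had 17.5, 17.4 and 17.5 CPM in responders, against 35.3, 36.8 and 39.2 CPM in the vehicle group (log2 fold change −1.1, standard error 0.17, adjusted p = 0.0231). Plin2, a coat protein of lipid droplets, had 27.2, 32.6 and 51.8 CPM in responders, against 85.7, 117 and 74.9 CPM in the vehicle group (log2 fold change −1.33, standard error 0.28, adjusted p = 0.0423). The 3 responder values of Agpat2 were nearly equal. Without vehicle 1, 3 genes of the list were called higher and 5 lower, where 4.6% of all genes were called higher and 3.25% lower.

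Of 20 genes of gluconeogenesis and fasting, Creb3l3, a fasting-induced factor, was called higher at 42.3, 37.3 and 45 CPM in responders, against 17.2, 21.8 and 23 CPM in the vehicle group (log2 fold change 0.995, adjusted p = 0.0351). Gpt, alanine aminotransferase, was called lower at 157, 148 and 118 CPM in responders, against 275, 322 and 321 CPM in the vehicle group (log2 fold change −1.13, adjusted p = 0.0228). The groups did not overlap in either gene, as in every called gene. The list held 1 called higher and 1 called lower (5% each), against 2.54% and 1.98% of all genes. Igfbp2, a binding protein of insulin-like growth factors, had 282, 303 and 289 CPM in responders, against 97.3, 138 and 172 CPM in the vehicle group (log2 fold change 1.09, adjusted p = 0.036). Pik3r1, the regulatory subunit of PI3 kinase, had 165, 141 and 123 CPM in responders, against 88.1, 75.7 and 74.7 CPM in the vehicle group (log2 fold change 0.83, adjusted p = 0.0408). Sesn3, a sestrin that restrains mTOR, was lower, with 7.35, 9.29 and 6.75 CPM in responders, against 17.9, 15.8 and 19.7 CPM in the vehicle group (log2 fold change −1.2, adjusted p = 0.036). These last 3 genes were the called members of the growth hormone and insulin lists. The share called higher was 6.67% of the growth hormone list and 3.23% of the insulin list, against 2.54% of all genes. The insulin list had 3.23% called lower, against 1.98% of all genes.

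Bile acid synthesis genes, which FXR controls, did not pass the test in any of the 10 genes of the classic and the alternative pathway (edgeR, 0 called and 1 at an unadjusted p under 0.05). DESeq2 called 1, and both were Cyp2c70. Cyp7a1, which catalyses the first and slowest step of the classic pathway, had 151, 379 and 329.6 CPM in responders, against 19, 278 and 658 CPM in the vehicle group (adjusted p = 0.931). Its lowest and highest values were both in the vehicle group, with vehicle 1 lowest. Its log2 fold change was −0.16 (standard error 0.91), so that this comparison could not resolve a change of several-fold. Cyp8b1, which sets the share of cholic acid, was at 10.1, 12.3 and 38.4 CPM in responders, against 14, 36.5 and 26.8 CPM in the vehicle group (log2 fold change −0.35, adjusted p = 0.714). Akr1d1, a reductase of both pathways, was at 26.4, 47.5 and 58.7 CPM in responders, against 24.5, 56.7 and 60.5 CPM in the vehicle group (log2 fold change −0.10, adjusted p = 0.89). Cyp27a1, which opens the alternative pathway, was the most evenly measured, at 238, 208 and 213 CPM in responders, against 205, 189.7 and 206 CPM in the vehicle group (log2 fold change 0.12, adjusted p = 0.648). Cyp7b1, the next hydroxylase, had 32.3, 2.8 and 6.18 CPM in responders and 16.2, 14.4 and 11.3 CPM in the vehicle group (log2 fold change −0.04, adjusted p = 0.977). Responder 1 was the highest and responder 2 the lowest of the 6. Cyp39a1, a hydroxylase of oxysterols, had a log2 fold change of 0.48 (adjusted p = 0.491), and Cyp46a1 of 0.55 (adjusted p = 0.409). Cyp2c70, which makes the muricholic acids of mice, was at 47.5, 15.3 and 14.4 CPM in responders, against 13.1, 9.96 and 8.54 CPM in the vehicle group (log2 fold change 1.27, adjusted p = 0.134).

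The receptors did not pass either. Of 21 receptors and partners, 14 were above 0 and 0 were called. At an unadjusted p under 0.05, 4 were higher and 0 lower, against 12.9% and 13.1% of all genes. The 21 summed to 2748 to 3350 CPM in responders and 2120 to 2367 CPM in the vehicle group. Nr1h4 had 8.35, 8.69 and 13.6 CPM in responders, against 4.42, 7.58 and 5.93 CPM in the vehicle group (log2 fold change 0.76, adjusted p = 0.174). Its target Nr0b2 had 6.24, 7.07 and 12.7 CPM in responders, against 8.36, 5 and 4.26 CPM in the vehicle group (log2 fold change 0.55, adjusted p = 0.403). Rxra, the partner of FXR, overlapped between the groups at 404, 283 and 237 CPM in responders, against 286, 316 and 339 CPM in the vehicle group (log2 fold change −0.04, adjusted p = 0.925). Nr1h3, the liver X receptor, had a log2 fold change of 0.12 (adjusted p = 0.781), and Rora, a lipid-sensing nuclear receptor, of −0.44 (adjusted p = 0.292). Baat, which conjugates bile acids to taurine, was higher in each responder biopsy, as were 16.3% of all genes tested. It just missed the threshold, at 5.24, 4.14 and 6.35 CPM in responders, against 1.32, 2.34 and 2.16 CPM in the vehicle group (log2 fold change 1.43, adjusted p = 0.0552). Of the 12 genes of bile acid side chain and conjugation, 7 were above 0, 5 below and 0 called. Their sum was 2458 to 2916 CPM in responders and 3023 to 4022 CPM in the vehicle group. Of 18 genes of bile acid and sterol transport, Slc10a5, a carrier of the bile acid transporter family, was called lower at 1.62, 2.24 and 1.26 CPM in responders, against 4.08, 6.14 and 4.73 CPM in the vehicle group (log2 fold change −1.55, adjusted p = 0.047). It was the 1 called of the list (5.56%, against 1.98% of all genes called lower). Abcb4, the phospholipid exporter of the canaliculus, did not pass at 545, 696 and 694 CPM in responders, against 1246, 949 and 1007 CPM in the vehicle group (log2 fold change −0.74, adjusted p = 0.0582).

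Several further genes with many reads were called. Fth1, the heavy chain of ferritin, was lower, at 1106, 1429.8 and 1403 CPM in responders, against 2044, 2834 and 3407 CPM in the vehicle group (log2 fold change −1.08, adjusted p = 0.0377). Of 34 antioxidant genes 2 were called lower (5.88%, against 1.98% of all genes) and 0 higher, with 22 below 0 (median −0.25). Txn2, the mitochondrial thioredoxin, had 26.5, 37.3 and 35.2 CPM in responders, against 71.3, 106 and 120.2 CPM in the vehicle group (log2 fold change −1.6, adjusted p = 0.0218). Gclc, part of the enzyme that starts glutathione synthesis, had 128, 214 and 204 CPM in responders, against 407, 321 and 357 CPM in the vehicle group (log2 fold change −1.001, adjusted p = 0.0475). Of 52 lysosomal genes, 34 were below 0 (median −0.31), and 2 were called higher and 2 lower (3.85% each). Over all genes 2.54% were called higher and 1.98% lower. At an unadjusted p under 0.05, 5 of the list were higher and 14 lower. Atp6v1g1, a subunit of the proton pump, was higher at 149, 180.1 and 137 CPM in responders, against 41.3, 50.2 and 42.4 CPM in the vehicle group (log2 fold change 1.79, standard error 0.18, adjusted p = 0.011). The cathepsin Ctsl was also higher (log2 fold change 1.27, adjusted p = 0.036), whereas the membrane protein Lamp2 was lower (log2 fold change −0.88, adjusted p = 0.0289). Among 27 genes of MHC class I and peptide loading, H2-Q7 was lower at 52.9, 64 and 69 CPM in responders, against 161, 162 and 191 CPM in the vehicle group (log2 fold change −1.48, adjusted p = 0.0202). H2-Q9 was higher at 104, 114 and 113 CPM in responders, against 53.5, 30.8 and 20.5 CPM in the vehicle group (log2 fold change 1.64, adjusted p = 0.036). Nlrc5, the activator of class I genes, was higher (log2 fold change 1.67, adjusted p = 0.0429). The list had 2 called higher (7.41%, against 2.54% of all genes) and 1 lower (3.7%, against 1.98%). The genes H2-Q7 and H2-Q9 are near-identical, so reads could be split between them in either way. Interferon response genes numbered 31, of which edgeR called 0, with 4 higher and 1 lower at an unadjusted p under 0.05. Of all genes, 12.9% were higher and 13.1% lower at that level. DESeq2 called 2 of the list higher and 1 lower, where it called 7.46% of all genes higher and 6.89% lower.

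Markers of stellate cells, Kupffer cells, bile duct cells and lipid-associated macrophages mostly had log2 fold changes below 0, where 50.8% of all genes tested lay. In whole biopsies, fewer cells of a type and less RNA per cell cannot be told apart. The summed level of the 12 hepatocyte markers was 7852 to 9902 CPM in responders and 7968 to 8347 CPM in the vehicle group. Ahsg was the 1 called (8.33%, against 2.54% of all genes called higher). Stellate cell markers, which include the retinoid-storing and matrix-making genes, had 13 of 18 below 0 (median −0.41). They summed to 1183 to 1362 CPM in responders and 1367 to 1784 CPM in the vehicle group. Reln, an extracellular glycoprotein of stellate cells, had 339, 384 and 361 CPM in responders, against 518, 629 and 586 CPM in the vehicle group (log2 fold change −0.69, adjusted p = 0.047). Ngfr, given above, was the other called (11.1% of the list called lower, against 1.98% of all genes). The 21 sinusoidal endothelial markers summed to 631 to 783.3 CPM in responders and 783.8 to 1001 CPM in the vehicle group. Of the 21, 12 were below 0 (median −0.11), near the share over all genes, and 1 was called lower (4.76%). Mrc1, the mannose receptor of these cells, had 74.3, 89.4 and 68.1 CPM in responders, against 164, 109 and 173 CPM in the vehicle group (log2 fold change −0.96, adjusted p = 0.047). Of 13 Kupffer cell markers tested, 9 were below 0 (median −0.51) and edgeR called 0, with 1 higher and 4 lower at an unadjusted p under 0.05. DESeq2 called 1 higher and 2 lower. Of all genes, 12.9% were higher and 13.1% lower at an unadjusted p under 0.05, and DESeq2 called 7.46% higher and 6.89% lower. The 14 in the table summed to 202 to 216 CPM in responders and 221 to 264 CPM in the vehicle group. Cd5l, the most read of them, overlapped at 70.2, 81.7 and 46.4 CPM in responders, against 73, 48.5 and 55.8 CPM in the vehicle group. The ferroportin gene Slc40a1 was at 34, 21.9 and 31.7 CPM in responders, against 44.7, 54.7 and 56.2 CPM in the vehicle group (log2 fold change −0.84, adjusted p = 0.0593). Spp1, osteopontin, which is in the lists for bile duct cells and for lipid-associated macrophages, was called lower at 7.72, 9.4 and 6.73 CPM in responders, against 16.3, 15.9 and 17.7 CPM in the vehicle group (log2 fold change −1.08, standard error 0.23, adjusted p = 0.0423). The 5 bile duct markers summed to 81.2 to 119.8 CPM in responders and 116 to 129 CPM in the vehicle group, and all 7 markers of lipid-associated macrophages and monocytes tested were below 0. Markers of T and NK cells and of neutrophils had no gene in the table, which lists only genes found in every biopsy, so their level was not analysed here. The part of cell composition in the results above was not tested. Erythroid genes, a sign of blood in the biopsy, summed to 356 to 449.8 CPM in responders and 198 to 287 CPM in the vehicle group. Of these, 3 were above 0 and 3 below, and 0 of 6 were called by edgeR or DESeq2, with 1 higher and 1 lower at an unadjusted p under 0.05. Among matrix genes, Col18a1, a basement membrane collagen, was higher at 113, 111 and 133 CPM in responders, against 50.2, 48.6 and 41.1 CPM in the vehicle group (log2 fold change 1.34, standard error 0.17, adjusted p = 0.0202). Col14a1, a fibril-associated collagen, was lower at 69.5, 80.7 and 80.4 CPM in responders, against 134, 127 and 115 CPM in the vehicle group (log2 fold change −0.72, standard error 0.16, adjusted p = 0.0443). Of the 57 collagen and matrix genes these 2 were called (1.75% higher and 1.75% lower). Both shares were below those of all genes, at 2.54% higher and 1.98% lower. A log2 fold change above 0 was found in 28 of the 57, near the 49.2% of all genes.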

How the data were processed

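Liver RNA of 10 biopsies was sequenced as paired-end reads, and 6 biopsies are compared here. Per the labels and the methods of the study, the authors used FastQC 0.11.7, Trimmomatic 0.38, HISAT2 2.1.0 with mm10 and StringTie (its version was not stated). The labels name both a stranded and another mRNA kit, and the use of strand in counting was not stated. For each gene the authors gave the number of reads as whole counts, an FPKM, and a log2 of FPKM plus 1 that they had quantile-normalized. The smallest count in the table is 1. Columns of the authors' own comparisons (fold changes and p-values) were not used.

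Counts were tested with edgeR 4.0.16 in R 4.3.3 (TMM, filterByExpr with minimum count 10 and minimum total 15, quasi-likelihood test, Benjamini-Hochberg over 10785 genes, threshold 0.05) on the 6 biopsies. CPM values use TMM over all 10. Alternatives used DESeq2 1.42.0 and limma 3.58.1, other scalings and filters, each biopsy left out, and, chosen after seeing the data, a length trend removed by loess (span 0.5) and vehicle 1 left out with the other 9 in 1 fit. Counts per gene between replicates differed by a median chi-square of 9.13 to 33.5, where counting alone gives 0.455, so each library was counted as its own sample. Transcript lengths come from GENCODE M21 (10825 of 10913 genes), and promoters and the microRNA from RefSeq (8214 tested genes matched). Named genes are the bile acid genes, markers and sex chromosome genes. They also include the 12 largest called changes in each direction, with a mean of at least 1 CPM and groups that do not overlap. Up to 5 members with the smallest p and the most read member of lists were named as well. Other genes given as examples were chosen after their values were seen. The members and gene lists were chosen with earlier results of these data known, and lists are described by counts and medians with no test. Some genes of the lists are not reported here.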

Additional observations from a re-analysis of the deposited data

How the results depend on the processing

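Scaling by RLE or upper quartile, leaving Rn45s out of the table, a stricter filter or none, limma on the authors' log2 values and the removed length trend kept the number of calls within 1.5 times of 488. The count rose to 1548 with DESeq2 (805 higher, 743 lower) and to 928 with all 10 biopsies in 1 fit (505 higher, 423 lower). It was 942 with vehicle 1 left out and the other 9 biopsies in 1 fit (520 higher, 422 lower). It was 1770 with limma on log2 of FPKM plus 0.1 (147 higher, 1623 lower), where no scaling beyond FPKM was applied and the median of all genes was −0.37. The share of higher calls was 8.31% there, against 56.1% in the reported fit. With the Rn45s share as a covariate edgeR called 0 genes (0 higher, 0 lower), with 337 at an unadjusted p under 0.05. Leaving out single biopsies gave 0 to 848 calls, 0 to 497 higher and 0 to 351 lower, and the cause was not tested, beyond the fewer samples in such a fit. The direction of 483 of the 488 genes was the same in all 19 alternatives in which each was tested. As their groups do not overlap, leaving out a biopsy could hardly change it.

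The replicate number as a block gave 83 calls (51 higher, 32 lower). Same-numbered biopsies of both groups did not deviate together (correlations of 0.0397, −0.0045 and −0.0424), so the numbers do not pair the mice. Not every biopsy correlated best with its own number.

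Reversals were listed for part of the genes named, which left out Arntl, Dbp, Per3, Tef, Fos and Alb, among others. Within that part, the reversals concerned genes that did not pass. With the Rn45s share in the model, the log2 fold change was 0.61 for Akr1d1, 3.66 for Cyp7a1, 0.22 for Rxra, −0.61 for Fasn, −0.39 for Mlxipl and −1.05 for Nr0b2. On log2 of FPKM plus 0.1 it was −0.23 for Cd5l, −0.25 for Cyp27a1, −0.21 for Nr1h3 and 0.43 for Cyp7a1. Cyp7a1 also reversed on the authors' log2 values (0.71) and under the block (0.74), Cyp7b1 with the length trend removed (0.045) and with vehicle 1 left out of the fit of 9 (0.096), and Nr1h3 in that fit (−0.0083). With single biopsies left out, it ranged from −0.41 to 0.16 for Akr1d1, from −0.023 to 0.35 for Cd5l, from −0.71 to 0.94 for Cyp7a1, from −1.65 to 0.45 for Cyp7b1, from −0.014 to 0.36 for Nr1h3 and from −0.28 to 0.12 for Rxra. Precision was set by the spread between 3 mice a group, and for genes below 1 CPM also by few reads.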
